A study of Mus musculus with 6 samples.

Results

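The genes of sterol and fatty acid synthesis were a set of 34 named genes among the 17554 genes of the table, chosen by symbol and described as a sterol group of 20 genes and a fatty acid group of 14. The RNA came from the corneal epithelial layer in 3 control samples, labelled WT, and 3 mutant samples, labelled Rela-/-. All 6 came from C57BL/6 mice aged 2 months. The sequencing methods of the study do not state how many mice gave each sample. According to the methods of the study, the mutants were *Krt14-Cre; Rela* f/f mice, in which a recombinase driven by the keratin 14 promoter removes a floxed part of *Rela*, the gene of the RelA subunit of NF-κB. That driver is also active in the limbus, conjunctiva, meibomian glands, skin, oral mucosa and trachea, and *Rela* is not deleted in cells that never use the promoter. The comparison of the genotypes asks how the transcripts of the lipid synthesis pathways differed between them.

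Cells build sterols and fatty acids from acetyl-CoA. One branch runs through mevalonate, farnesyl diphosphate and squalene to lanosterol and cholesterol, and the other makes palmitate, which elongases lengthen and desaturases provide with double bonds. SREBP transcription factors, encoded by *Srebf1* and *Srebf2*, activate most of these genes when membrane sterol is low, and INSIG proteins retain them in the endoplasmic reticulum when sterol is plentiful.

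*Rela* lies on chromosome 19 of GRCm38 from 5635891 to 5649631. Its FPKM (fragments scaled by transcript length and sample total) was 36.5, 34.7 and 33.4 in the controls, compared with 4.93, 5.53 and 5.72 in the mutants. Its log2 fold change was -2.75 (SE 0.085, adjusted p = 5.5e-07). Here and in the following, log2 fold changes are of mutant over control from edgeR's quasi-likelihood test, with p-values adjusted by the Benjamini-Hochberg method over the 12667 genes that passed a filter on low counts. A gene was said to rise or fall at an adjusted p under 0.05. The expected counts, in which reads matching several genes are shared out, summed to between 19492942 and 19733834 per sample. *Krt12*, the keratin of corneal epithelium, reached an FPKM of 21190, and the summed FPKM of 6 corneal epithelial markers was 45650 to 49730 in the controls and 41940 to 45690 in the mutants, with *Krt14* higher (log2 fold change 3.32, adjusted p = 1.1e-05) and *Aldh3a1* lower (log2 fold change -0.25, adjusted p = 0.047). Mutant sample 1 stood apart from the other mutant samples on the second principal component of all genes, which held 11.6% of the variance, with a score of 24.2 beside -9.53 and -20.7.

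To show what the promoters of these genes look like, the 250 bases before the start of 3 of them were taken from RefSeq (GRCm38.p6), each 5′ to 3′ on the strand of its gene. *Hmgcs1* is shown because its window holds both motifs that SREBP-driven promoters are known for, *Insig1* and *Tm7sf2* because they were the sterol genes that fell. Capitals mark the core of the sterol response element, CACCCCAC, and the NF-Y box, CCAAT, or ATTGG where it is read from the other strand.
Hmgcs1, chr13:119690101-119690350, plus strand: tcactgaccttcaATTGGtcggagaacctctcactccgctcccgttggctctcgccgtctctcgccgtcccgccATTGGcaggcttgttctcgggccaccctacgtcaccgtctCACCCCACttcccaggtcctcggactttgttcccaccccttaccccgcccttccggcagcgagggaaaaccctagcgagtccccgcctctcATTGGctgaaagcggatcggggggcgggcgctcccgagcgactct
Insig1, chr5:28071162-28071411, plus strand: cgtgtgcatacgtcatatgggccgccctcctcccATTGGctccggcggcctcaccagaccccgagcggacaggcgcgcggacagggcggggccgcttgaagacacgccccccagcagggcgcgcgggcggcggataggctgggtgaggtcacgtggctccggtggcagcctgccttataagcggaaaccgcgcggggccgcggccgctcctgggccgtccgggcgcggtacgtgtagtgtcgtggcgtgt
Tm7sf2, chr19:6067851-6068100, minus strand: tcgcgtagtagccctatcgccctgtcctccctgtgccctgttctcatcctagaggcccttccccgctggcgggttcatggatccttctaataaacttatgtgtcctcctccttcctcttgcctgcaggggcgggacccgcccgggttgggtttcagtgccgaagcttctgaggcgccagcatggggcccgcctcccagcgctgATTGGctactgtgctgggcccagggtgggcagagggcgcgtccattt

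RefSeq promoter windows, from 250 bases before to 50 after a start, were at hand for 27 of the 34 genes and numbered 33. The NF-Y box was present on either strand in 24 of these 33 windows (72.7%), against 37.4% of 32851 windows of all genes. The sterol response element core stood in 2 of them (6.06%), those of *Hmgcs1* and *Elovl7*, against 2.87% of all windows. A loose κB motif, GGGNNNNNCC on either strand, was in 28 of the 33 windows (84.8%) and in 50.8% of all windows, and its matches may overlap one another. The window of *Elovl6* held none of the 3 motifs, and that of *Tm7sf2* held 7 matches of the κB motif. All fixed letters of the κB motif are G or C. The windows of all genes were not matched to those of the 27 genes in base composition or in expression. The part of these 2 features in the shares was not tested. A match is a string of letters and not a measured binding site.

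In the sterol group most transcripts were close to their control level, and 17 of the 18 genes that were not called had a 95% interval within a 1.5-fold change. All 20 genes passed the filter, 2 fell, *Tm7sf2* and *Insig1*, and none rose. Of all tested genes, 5.42% fell and 7.82% rose. The share of the sterol group that fell, 10%, rested on 2 genes, and without control sample 2 or control sample 3 it was 1 gene, *Tm7sf2*. At an unadjusted p under 0.05 the same edgeR test had 3 sterol genes lower and 2 higher, 5 of 20, and 28.1% of all tested genes had such a p in either direction. DESeq2 and limma also gave 2 lower and 0 higher at an adjusted p under 0.05. The median log2 fold change of the group was -0.04, beside -0.0028 for all tested genes, and the range was -0.50 to 0.33. The stricter threshold of the study asks for a fold change of at least 2 with an adjusted p no larger than 0.001. Applied here to the edgeR values and not to those of the study's own test, it was passed by no sterol or fatty acid gene. Of all tested genes, 1.37% passed it in this way. In these bulk samples, fewer cells of a type and less RNA per cell cannot be told apart.

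The steps from acetyl-CoA units to farnesyl diphosphate gave 6 genes, and none of them was called in either direction by edgeR, DESeq2 or limma (1 was lower and 1 higher at an unadjusted p under 0.05 in edgeR). *Hmgcs1*, which encodes the synthase that makes HMG-CoA, had an FPKM of 237, 220 and 206 in the controls, compared with 188, 192 and 213 in the mutants. The ranges overlapped on this scale, and the log2 fold change was -0.16 (95% interval -0.34 to 0.01, adjusted p = 0.21). *Mvk*, mevalonate kinase, was at an FPKM of 37.2, 35.6 and 39.4 against 30.1, 32.5 and 34.0. Each mutant sample lay below each control sample, but the difference did not pass the adjustment (log2 fold change -0.22, 95% interval -0.40 to -0.04, adjusted p = 0.11). *Pmvk* and *Mvd*, the next kinase and decarboxylase of the mevalonate steps, had log2 fold changes of -0.10 and 0.08. *Fdps*, the synthase of farnesyl diphosphate, was the most abundant sterol gene, at a mean FPKM of 283 ± 14 in control and 280 ± 7.4 in mutant samples (SD, n = 3 each).

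*Idi1* encodes the isomerase of isopentenyl diphosphate, and it had the highest log2 fold change of the sterol group. Its FPKM was 10.7, 12.6 and 10.9 in the controls and 17.0, 13.8 and 12.2 in the mutants. Mutant sample 3 lay within the control range and the other two lay above it. The log2 fold change was 0.33 (95% interval 0.04 to 0.61, adjusted p = 0.12), and without mutant sample 3 it was 0.44 (adjusted p = 0.041). Of the 50-base windows of *Idi1* transcripts, 25.3% also occur in another gene, as do 26.2% of those of *Fdps*, 26.5% of those of *Fdft1* and 11.6% of those of *Hmgcs1*, so that the counts of these 4 genes depend on how RSEM divided shared reads.

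None of the 3 genes of the squalene steps was called by edgeR, DESeq2 or limma, nor had any an unadjusted p under 0.05 in edgeR. *Fdft1*, *Sqle* and *Lss* encode squalene synthase, squalene epoxidase and lanosterol synthase, in this order. Their log2 fold changes were 0.04, -0.15 and 0.02, and the 95% intervals of all 3 lay between -0.31 and 0.24. *Sqle* had a mean FPKM of 154 ± 3.1 in control and 139 ± 11 in mutant samples (SD, n = 3 each, adjusted p = 0.24).

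Of 8 genes that act after lanosterol, 1 fell. *Tm7sf2*, a sterol reductase of the endoplasmic reticulum that lies on chromosome 19 from 6062821 to 6067850, was measured at an FPKM of 27.5, 28.9 and 30.3 in the controls, compared with 22.9, 19.4 and 19.04 in the mutants. All mutant samples lay below all control samples, and the mutant mean was 70.7% of the control mean. The log2 fold change was -0.50 (SE 0.097, adjusted p = 8.7e-03), and the gene was called in 13 of 13 alternative analyses. *Tm7sf2* lies 413 kb from *Rela* on the same chromosome. Of the 79 tested genes within 1 Mb of *Rela*, 5 fell (6.33%) and 7 rose, beside 5.42% lower and 7.82% higher of all tested genes. The exons of *Tm7sf2* overlap those of *Vps51* over 12.1% of their bases.

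The other 7 genes of these steps were not called. *Hsd17b7*, a ketosterol reductase, had an FPKM of 13.41, 12.04 and 12.41 against 15.11, 13.82 and 14.85, each mutant sample above each control sample (log2 fold change 0.21, 95% interval 0.04 to 0.38, adjusted p = 0.11). *Cyp51*, the lanosterol demethylase, was at 61.2, 52.3 and 55.7 against 55.8, 62.4 and 73.5. These ranges overlapped, and the log2 fold change was 0.18 (adjusted p = 0.30). *Msmo1*, *Nsdhl*, *Ebp*, *Sc5d* and *Dhcr7*, which encode the methylsterol oxidase, a sterol dehydrogenase, the sterol isomerase, a sterol desaturase and the last reductase before cholesterol, had log2 fold changes of 0.08, -0.10, 0.11, -0.06 and -0.16. For *Sc5d* the mean FPKM was 125 ± 2.5 and 124 ± 0.48 (SD, n = 3 each), and in FPKM its mutant samples had the smallest relative spread of the 33 tested genes. Its expected counts in the mutants were 5902, 6253 and 6294. By normalized counts each mutant sample of *Sc5d* lay below each control sample.

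Among the genes of sterol control and transport, *Insig1* fell. *Insig1*, itself a known target of SREBP, lies on chromosome 5 from 28071412 to 28078662. Its FPKM was 125, 134 and 139 in the controls and 87.4, 108 and 91.6 in the mutants. The groups did not overlap, and the mutant mean was 72.0% of the control mean. The log2 fold change was -0.48 (SE 0.097, adjusted p = 0.012). Leaving out control sample 2 or control sample 3 took the adjusted p to 0.051 and 0.057, with the direction unchanged. *Srebf2*, the SREBP gene best known for sterol synthesis, was at 97.2, 101 and 95.2 against 80.5, 88.2 and 103, with mutant sample 3 above the control samples and the other two below them (log2 fold change -0.13, 95% interval -0.33 to 0.07, adjusted p = 0.38). *Stard4*, a carrier of cholesterol between membranes, had a log2 fold change of 0.04 (95% interval -0.14 to 0.23).

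**Figure D1:**
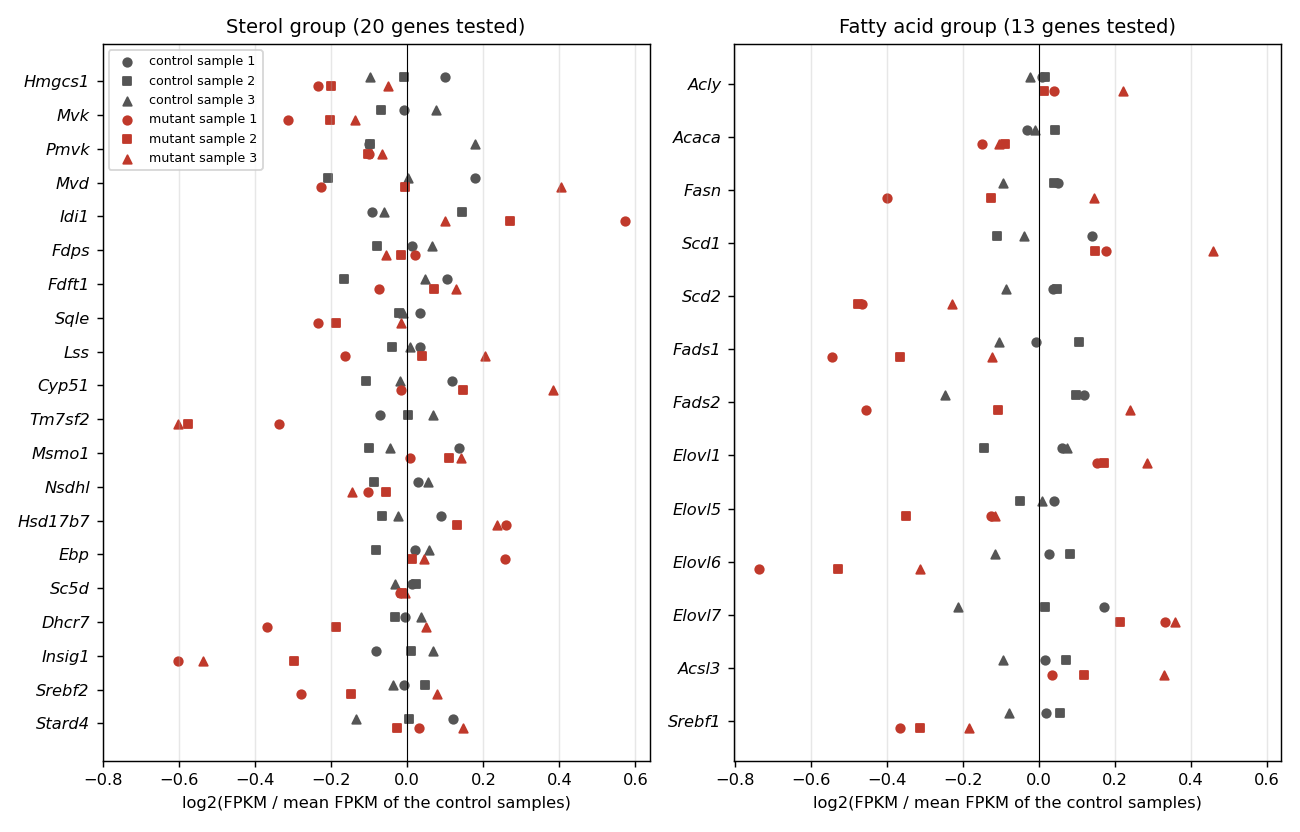
FPKM of each sample as log2 of its ratio to the mean FPKM of the control samples (x axis), 1 line per gene, for the 20 sterol genes (left) and the 13 tested fatty acid genes (right). Grey points are control samples and red points mutant samples, and the shape gives the sample number. The mutant samples of *Tm7sf2*, *Insig1*, *Scd2*, *Elovl6* and *Srebf1* lie left of the control samples. The same holds for *Mvk*, *Acaca*, *Elovl5* and *Fads1*, which were not called. Those of *Hsd17b7*, *Scd1*, *Elovl1* and *Elovl7*, also not called, lie right of the control samples.

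In the fatty acid group 3 of 13 tested genes fell, *Elovl6*, *Scd2* and *Srebf1*, and none rose. The share that fell was 23.1%, beside 5.42% of all tested genes, a comparison that rests on 3 genes and was not tested. The count was 1 without control sample 1 or mutant sample 2, and 0 without control sample 2. At an unadjusted p under 0.05 the same edgeR test had 5 lower and 3 higher, 8 of 13, beside 28.1% of all tested genes in either direction. No gene rose with DESeq2 or limma at an adjusted p under 0.05. The median log2 fold change was -0.11 and the range -0.52 to 0.31. The remaining gene, *Acacb*, had an FPKM of 0.01 to 0.05 in every sample and did not pass the filter.

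The path from acetyl-CoA to palmitate was not called at any of the 3 tested steps by edgeR, DESeq2 or limma, and 0 of the 3 genes had an unadjusted p under 0.05 in edgeR. *Acly*, which makes cytosolic acetyl-CoA from citrate, had a log2 fold change of 0.09 (95% interval -0.08 to 0.26), and *Acaca*, the carboxylase that makes malonyl-CoA, one of -0.12 (95% interval -0.28 to 0.03). Of the 50-base windows of *Acaca*, 30.4% also occur in another gene. *Fasn*, the fatty acid synthase, was at an FPKM of 46.7, 46.4 and 42.3 in the controls and 34.2, 41.3 and 49.9 in the mutants. Its mutant samples spread 1.46-fold from the lowest to the highest and lay on both sides of the control samples (log2 fold change -0.11, 95% interval -0.38 to 0.15, adjusted p = 0.57).

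Of 4 desaturases, 1 fell. *Scd2*, a stearoyl-CoA desaturase that puts the first double bond into saturated acyl chains, was the most abundant of all 34 genes, and lies on chromosome 19 from 44293143 to 44306864. Its FPKM was 463, 467 and 425 in the controls and 327, 325 and 385 in the mutants. The groups did not overlap, and the log2 fold change was -0.39 (SE 0.082, adjusted p = 0.013). The call was lost without control sample 1, without control sample 2 or without mutant sample 2, with a highest adjusted p of 0.064 over all alternatives. Its neighbour *Scd1*, which encodes the same activity, was at 18.1, 15.2 and 16.0 against 18.6, 18.2 and 22.6. Here each mutant sample lay above each control sample, with a log2 fold change of 0.26 that did not pass the adjustment (95% interval 0.04 to 0.48, adjusted p = 0.11). The ratio of *Scd2* to *Scd1*, both in FPKM, was 25.6, 30.7 and 26.6 in the controls and 17.6, 17.9 and 17.1 in the mutants, while *Scd2* still gave 94.5% to 94.7% of the FPKM of the pair in the mutant samples. Of the 50-base windows of *Scd2* and *Scd1*, 3.97% and 4.56% occur in another gene.

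*Fads1* and *Fads2* encode the desaturases of polyunsaturated fatty acids. *Fads1* was at an FPKM of 34.6, 37.4 and 32.3 in the controls and 23.8, 27.0 and 31.9 in the mutants. The groups were separated by a narrow gap between control sample 3 and mutant sample 3. The log2 fold change of -0.34 (SE 0.11) narrowly missed the threshold (adjusted p = 0.061), and it passed with DESeq2 (adjusted p = 0.020), with no filter on low counts and without mutant sample 3 (adjusted p = 0.016). *Fads2* had the widest spread among the mutant samples of all the tested genes of both groups, 31.5, 40.1 and 51.0, against 46.9, 46.2 and 36.4 in the control samples (log2 fold change -0.08, 95% interval -0.43 to 0.26).

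Among 4 elongases, 1 fell, and the other three had log2 fold changes of both signs that did not pass the adjustment. *Elovl6*, which lengthens palmitate to stearate, lies on chromosome 3 from 129532252 to 129641930. Its FPKM was 51.0, 53.0 and 46.2 in the controls and 30.0, 34.7 and 40.3 in the mutants. The groups did not overlap, and the mutant mean was 70.0% of the control mean, the lowest share of all 34 genes. The log2 fold change was -0.52 (SE 0.10, adjusted p = 9.6e-03), and without control sample 2 the adjusted p was 0.053. *Elovl5*, which acts on polyunsaturated chains, had a log2 fold change of -0.20 (95% interval -0.39 to -0.02, adjusted p = 0.14). *Elovl1*, which acts on saturated chains of great length, was at 93.0, 80.6 and 93.8 against 99.1, 100 and 108. Each mutant sample lay above each control sample (log2 fold change 0.19, 95% interval 0.01 to 0.37, adjusted p = 0.17). *Elovl7* was low in both genotypes, with a mean FPKM of 1.22 ± 0.16 and 1.5 ± 0.079 (SD, n = 3 each), and its log2 fold change was 0.31 (adjusted p = 0.16). *Elovl6* made up 27.6% to 33.1% of the summed FPKM of the 4 elongases in the controls and 19.4% to 23.1% in the mutants, and *Elovl1* 50.4% to 56.1% and 62.2% to 64.1%.

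*Acsl3*, an acyl-CoA synthetase that activates fatty acids, had a log2 fold change of 0.16 (95% interval -0.03 to 0.36, adjusted p = 0.25). *Srebf1*, the SREBP gene best known for fatty acid synthesis, lies on chromosome 11 from 60199084 to 60222686. Its FPKM was 40.5, 41.5 and 37.9 in the controls and 31.0, 32.2 and 35.2 in the mutants. The groups did not overlap, and the log2 fold change was -0.29 (SE 0.073, adjusted p = 0.029). This was the least stable of the 5 calls. It passed in 8 of 13 alternatives, and was lost without any 1 of the 3 control samples, without mutant sample 2, and with a block for the replicate number (adjusted p = 0.066).

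**Figure D2:**
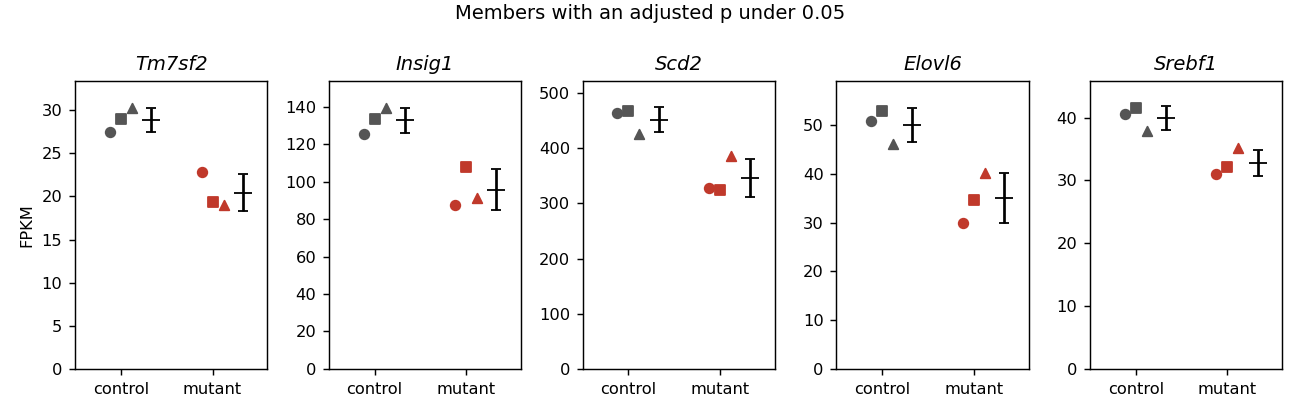
FPKM (y axis, from 0) of the 5 genes called lower, in control (grey) and mutant (red) samples. Circles, squares and triangles are samples 1, 2 and 3, and the bars give the mean ± SD (n = 3). In every panel the highest mutant sample lies below the lowest control sample, and *Srebf1* has the narrowest gap relative to its level, 35.2 against 37.9.

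Both groups together had 5 of 33 tested genes lower and none higher. By TMM-normalized counts, the mutant samples lay below all control samples for 12 of the 33 genes and above them for 5, and they overlapped for 16. In the whole table the groups were separated in these directions for 16.4% and 17.3% of the tested genes. Of the 28 genes that were not called, 26 had a 95% interval within a 1.5-fold change in either direction, and the intervals of these 28 genes ran from 0.668-fold to 1.53-fold. A p that misses the threshold does not show that a transcript was unchanged, and these intervals give the sizes of change that the 3 samples of each genotype still allowed.

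**Figure D3:**
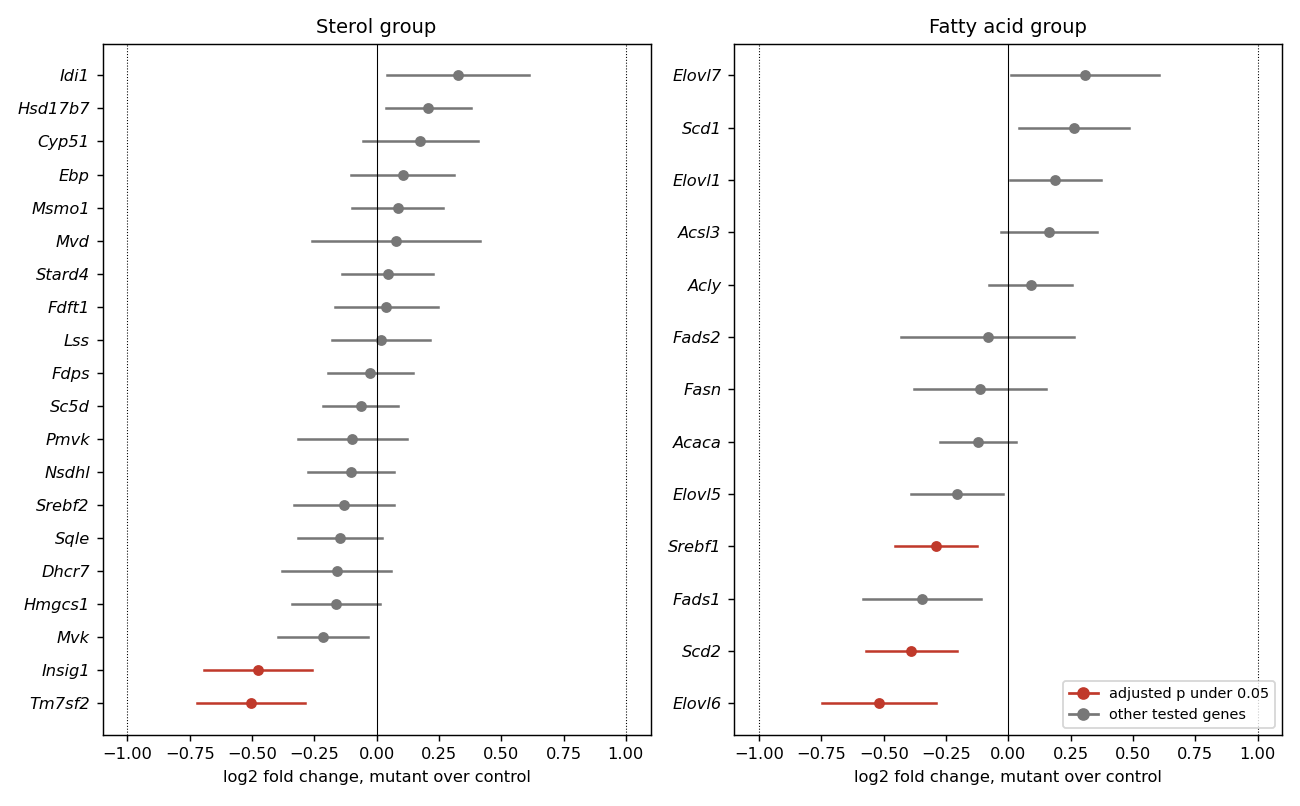
Log2 fold change of mutant over control from edgeR with its 95% interval (x axis), for the sterol group (left) and the fatty acid group (right), each ordered by its value. Red marks an adjusted p under 0.05, and the dotted lines stand at a 2-fold change. The red points lie between -0.52 and -0.29, and no interval reaches a dotted line.

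The mutant samples differed among themselves, and the same order recurred in many of the genes but not in all. Mutant sample 1 was the lowest and mutant sample 3 the highest of the mutant samples for 17 of 33 genes, 10 of the sterol and 7 of the fatty acid group, and this order held for 21.7% of all tested genes. The median ratio of mutant sample 3 to mutant sample 1 in normalized counts was 1.11 over both groups, 1.25 over the 4 desaturases and 1.00 over all tested genes. It was highest for *Fads2* at 1.58, *Mvd* at 1.51 and *Fasn* at 1.43. *Idi1* went the other way, at 0.704. The coefficient of variation was larger in mutant than in control samples for 22 of 33 genes, beside 58.3% of all tested genes. Without mutant sample 1, 2 sterol and 3 fatty acid genes were called.

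The labels give no hour of collection. Of 13 genes of the circadian clock, 4 fell, *Per3*, *Nr1d2*, *Tef* and *Hlf*, and none rose with edgeR, DESeq2 or limma (6 lower and 1 higher at an unadjusted p under 0.05 in edgeR). Of all tested genes, 5.42% fell and 7.82% rose, and 28.1% had such an unadjusted p in either direction. *Per1* and *Per2* had the lowest log2 fold changes of the clock genes, -1.11 and -0.73, and *Arntl* the highest, 0.61. These did not pass the adjustment in edgeR (adjusted p = 0.076, 0.095 and 0.17). The summed FPKM of the 13 genes was 539 to 589 in the controls and 391 to 516 in the mutants. Mutant sample 1 was the lowest and mutant sample 3 the highest for 7 of these 13 genes, beside 21.7% of all tested genes. The part of the clock genes in the falls of the 5 lipid genes was not tested.

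Marker lists of other cell types were read beside these values. *Awat2*, an enzyme of meibomian wax synthesis, reached an FPKM of at most 0.34, and the summed FPKM of the 7 of 10 meibomian and sebaceous markers in the table was 0.88 to 1.32 in the controls and 0.76 to 1.96 in the mutants, with none called or at an unadjusted p under 0.05. *Adipoq*, of adipocytes, reached at most 0.04, and the 4 of 6 adipocyte markers in the table summed to 0.10 to 0.34 and 3.41 to 6.25. In the mutants nearly all of this came from *Fabp4*, which was higher (log2 fold change 4.87, adjusted p = 6.0e-04), with 0, 2 and 3 counts in the controls. Its mean FPKM was 0.15 ± 0.13 and 4.37 ± 1.6 (SD, n = 3 each). *Kera*, of stromal keratocytes, reached at most 0.07, and 6 keratocyte markers summed to 0.09 to 0.22 and 0.50 to 3.08. Of these only *Dcn* passed the filter, and it was higher (log2 fold change 4.17, adjusted p = 5.1e-03). It had 3, 2 and 1 counts in the controls and 66, 34 and 14 in the mutants. *Muc5ac*, *Ptprc*, *Pecam1* and *Acta1*, the defining markers of goblet cells, leukocytes, endothelium and muscle, reached at most 0.01, 0.15, 0.23 and 0.07. The 6 leukocyte markers nevertheless summed to 81.3 to 89.2 in the controls and 73.4 to 119.7 in the mutants, most of it from *Itgam* and *Cd68*, and neither of the 2 tested was called or had an unadjusted p under 0.05. Markers of conjunctiva summed to 1281 to 1510 and 990 to 1081, with *Krt13* lower (log2 fold change -0.45, adjusted p = 0.015). *Krt4* had a log2 fold change of -1.01 that did not pass the adjustment (adjusted p = 0.091). *Pmp22*, listed as a Schwann cell marker, was higher (log2 fold change 0.68, adjusted p = 6.1e-03). *Krt10*, of epidermis, reached 3.97, and 4 epidermal markers summed to 5.93 to 6.77 and 4.99 to 6.28. The labels give no sex, and 4 Y-linked genes were detected in all 6 samples, at a summed FPKM of 69.2 to 77.1 and 67.4 to 89.0. The part of the adipocyte, keratocyte, conjunctival and Schwann cell markers that moved in the values of the lipid genes was not tested.

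Further lists of lipid genes, which held none of the 34, were counted in the same fit. Of 25 tested genes of sterol uptake, storage, transport and further synthesis steps, 2 fell and 3 rose, with a median log2 fold change of -0.06. *Mylip*, a ligase that marks lipoprotein receptors for degradation, showed a log2 fold change of -0.57 (SE 0.086, adjusted p = 2.4e-03). *Soat1*, which esterifies cholesterol, rose from 1.19 ± 0.11 to 2.43 ± 0.19 in mean FPKM (SD, n = 3 each, log2 fold change 1.02, adjusted p = 8.7e-04). *Insig2*, the other gene of the INSIG pair, rose from 24.1 ± 1.8 to 31.5 ± 3.5 (log2 fold change 0.38, adjusted p = 0.037), in the direction opposite to *Insig1*. *Cyp7b1*, an oxysterol hydroxylase, rose to a mean FPKM of only 1.61 ± 1.2 (adjusted p = 0.031).

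Of 30 tested genes of other fatty acid steps, 5 fell and 6 rose, with a median log2 fold change of 0.02. *Cpt1a*, *Mid1ip1* and *Acadm*, which act in the import of fatty acids into mitochondria, in the assembly of acetyl-CoA carboxylase and in β-oxidation, had log2 fold changes of -0.54, -0.40 and -0.37 (adjusted p = 8.6e-03, 8.6e-03 and 0.010). *Fads3*, a relative of *Fads1* and *Fads2*, rose from a mean FPKM of 1.83 ± 0.31 to 4.86 ± 0.052 (adjusted p = 2.8e-04). *Fabp5*, a fatty acid binding protein of epidermal cells, rose from 88.1 ± 9.5 to 629 ± 297 (adjusted p = 2.9e-04), and *Elovl4*, an elongase of very long chains, from 0.10 ± 0.11 to 5.43 ± 3.7 (adjusted p = 6.7e-04; SD, n = 3 each). These 3 rises exceeded the log2 fold change of every tested gene of the 34.

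Of 16 tested genes of ceramides and other epithelial barrier lipids, 4 rose and none fell, at an unadjusted p under 0.05 or with DESeq2 or limma either. *Abca12*, a lipid transporter of keratinocytes, had 2, 1 and 0 counts in the control samples and reached a level at least 32.7-fold higher in the mutants, against a floor of 3 counts per library. *Degs1*, which makes ceramide from dihydroceramide, rose from 20.1 ± 2.4 to 38.7 ± 4.3 in mean FPKM (adjusted p = 8.0e-04), and *Ugcg*, the glucosylceramide synthase, from 1.36 ± 0.17 to 3.2 ± 0.63 (adjusted p = 1.4e-03; SD, n = 3 each). The log2 fold changes of *Degs1* and *Ugcg*, 0.89 and 1.25, lay above the range of the 33 tested sterol and fatty acid genes.

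**Figure D4:**
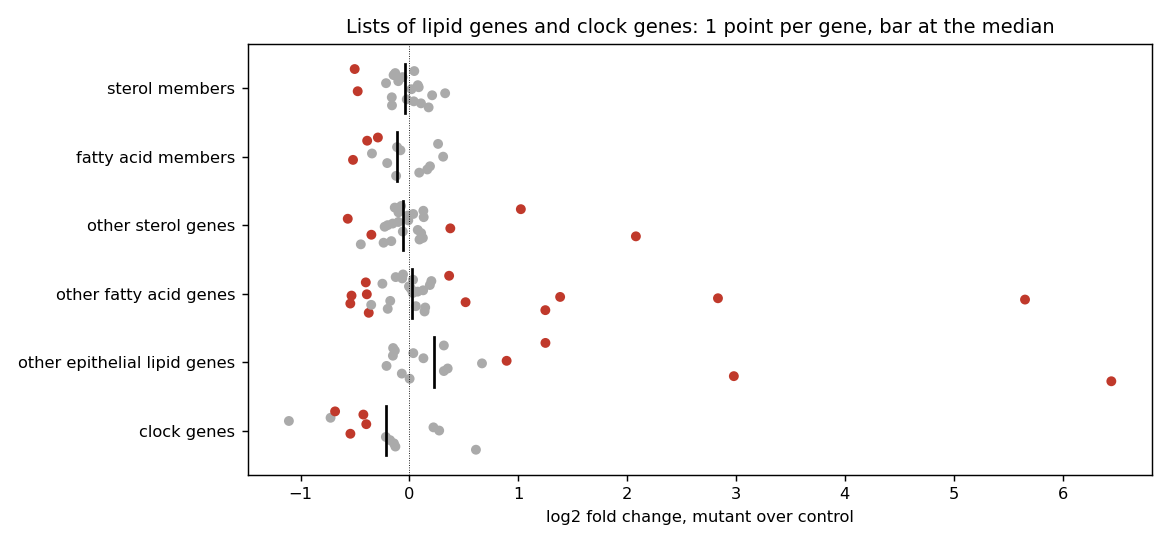
Log2 fold change of mutant over control from edgeR (x axis) for each tested gene of the sterol and fatty acid groups, of 3 lists of other lipid genes and of 13 clock genes. Red marks an adjusted p under 0.05 and the black bar the median of the list. The point at the far right is *Abca12*, whose control samples had 3 or fewer counts, so that its position depends on the fit.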

How the data were processed

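The authors sequenced rRNA-depleted RNA as single-end 50-base reads, aligned them with Bowtie2 2.2.5 and deposited RSEM 1.2.12 expected counts, unnormalized, and FPKM values per sample, scaled by transcript length and sample total. The submitters' processing notes name mm9 and the labels an Illumina kit, whereas the table places genes on GRCm38 and the paper names a BGISEQ-500 instrument. The deposited columns of the authors' own comparison (log2 fold changes, p-values and q-values) were not used.

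Samples were grouped by the genotype labels, and the study describes them as independent biological samples. Expected counts were rounded and tested with edgeR 4.0.16 (R 4.3.3; TMM, filterByExpr with a minimum count of 10 and total of 15, quasi-likelihood test, genotype as factor). Standard errors were derived from the log2 fold change and the F statistic. Alternatives were upper-quartile scaling, DESeq2 1.42.0, testing without a filter, 10 counts in every sample, limma 3.58.1 on log2(FPKM + 1) and log2(FPKM + 0.1) for genes with a mean FPKM of at least 0.5, a replicate block, and each sample left out. The statistics were tested on simulated data. All planted changes there were larger than those of the called genes among the 34, so the simulation does not bear on changes of that size. The genes, lists and tests were chosen with earlier results of these data known. All 34 genes are named. Of each other lipid list, up to 3 called genes per direction with the smallest adjusted p are named. Some genes that this rule would name are left out of the text. Shared windows were counted in GENCODE transcripts of GRCm38. Floors of 3 counts cover counting error only. With 3 samples per group the spread is estimated with help from all genes.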

Additional observations from a re-analysis of the deposited data

How the results depend on the processing

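The number of genes with an adjusted p under 0.05 (edgeR: 2 sterol, 3 fatty acid, 1678 of all genes) fell to 0, 0 and 173 at the stricter threshold of the study's methods (0.001 and 2-fold). With each sample left out in turn it ranged from 1 to 3 sterol genes, from 0 to 4 fatty acid genes and from 857 to 1869 of all genes. The lowest counts came without control sample 2 (1, 0 and 857), and without control sample 3 they were 1, 2 and 999. Without control sample 1 or mutant sample 2, 1 fatty acid gene was called. Leaving out a sample also leaves fewer samples, and other causes were not tested. Under DESeq2, upper-quartile scaling, both filters and both limma fits the sterol count was 2 and the fatty acid count 3 or 4.

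Samples with the same number did not deviate together (correlations 0.019, 0.048 and -0.046), so the numbers were not taken as pairs. With a replicate block, 2 sterol, 2 fatty acid and 1419 of all genes were called.

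Of 33 tested genes, 25 kept the sign of their log2 fold change in all 13 alternatives. The other 8, none past 0.11 in size, changed it with a sample left out. Over the samples left out, *Pmvk* ranged from -0.15 to 0.015, *Mvd* from -0.10 to 0.20, *Fdps* from -0.070 to 0.019, *Fdft1* from -0.044 to 0.089, *Lss* from -0.053 to 0.094, *Stard4* from -0.0018 to 0.11, *Fasn* from -0.25 to 0.0059 and *Fads2* from -0.26 to 0.068. The depth, at most 19733834 counts per sample, limits the low genes most, *Acacb* and *Elovl7* among these.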
